A study of Homo sapiens with 6 samples.

Results

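Toll-like receptors and their adaptors were examined in MDA-MB231 cells, an established human line from a metastatic breast cancer. The set was named as 10 genes: the receptors TLR1 to TLR6, the co-receptors LY96 and CD14, and the signalling proteins MYD88 and IRAK1. It was put together after TLR4 had been seen to be higher in the knockdown, so the values of these genes between the groups are a description and carry no test. Each gene was taken from the probe set that the platform annotation pairs with that gene and no other, which gave 9 of the 10 genes out of 18417 genes in all. No probe set is paired with TLR5 in that annotation, so TLR5 was not analysed here.

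The study compared 3 arrays of a single clone carrying a stable G9a knockdown with 3 arrays of parental cells given no treatment, called control here. G9a is the product of EHMT2 and methylates histone H3, a mark of repressed genes. Both groups were cultured in DMEM/F12 with serum and harvested in logarithmic growth, and the knockdown cells are labelled as less metastatic. No treatment with a Toll-like receptor ligand is named for either group. A clone can differ from its parental cells in ways other than the knockdown, and with 1 clone these cannot be told apart. Nothing in the labels says that replicates came from separate cultures, so the error terms measure the spread between these arrays, which may be technical.

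Toll-like receptors are membrane proteins that recognise microbial products. TLR4 binds bacterial lipopolysaccharide in a complex with MD-2, the product of LY96, and CD14 hands the ligand to that complex; TLR2 pairs with TLR1 or TLR6 to bind lipopeptides, and TLR3 binds double-stranded RNA inside endosomes. All of these except TLR3 signal through the adaptor MYD88 and the kinase IRAK1 to NF-kappaB, TLR3 signals through the adaptor TRIF, and TLR4 uses both. They are best known from macrophages and other leukocytes, but many epithelial and tumour cells express some of them.

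The promoters of TLR4 and TLR3 are shown here because these are the receptors whose levels varied most between arrays. The sequences are from RefSeq on GRCh38.p14, 250 bases before to 50 bases after the start of the gene, 5′ to 3′ on the gene's strand, which is the plus strand for both. TLR4 lies at chr9:117704153-117704452 and TLR3 at chr4:186068906-186069205. Capitals in TLR4 mark GAGGAA on either strand, the core of sites for PU.1, a factor of the ETS family known to drive human TLR4 in myeloid cells. Capitals in TLR3 mark GAAA, any 2 bases and GAAA again on either strand, the core of the interferon-stimulated response element.
TLR4: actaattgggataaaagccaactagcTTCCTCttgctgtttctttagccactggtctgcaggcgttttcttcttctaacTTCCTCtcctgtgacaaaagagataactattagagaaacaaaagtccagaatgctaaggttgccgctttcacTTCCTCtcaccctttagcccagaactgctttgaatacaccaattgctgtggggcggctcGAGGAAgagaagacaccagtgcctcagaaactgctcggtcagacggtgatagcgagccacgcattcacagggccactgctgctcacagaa
TLR3: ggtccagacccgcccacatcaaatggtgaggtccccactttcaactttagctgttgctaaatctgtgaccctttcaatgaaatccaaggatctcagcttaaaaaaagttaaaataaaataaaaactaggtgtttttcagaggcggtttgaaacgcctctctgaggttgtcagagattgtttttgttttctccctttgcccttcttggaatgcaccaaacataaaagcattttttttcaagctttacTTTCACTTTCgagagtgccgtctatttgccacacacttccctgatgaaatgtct

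The TLR4 window held GAGGAA 4 times, beginning 224, 171, 99 and 40 bases before the start. Of 35116 RefSeq promoters of this length, 27.9% held it at least once and 0.0911% held it 4 times or more. Among the 6 other measured members with a promoter entry, CD14, MYD88 and TLR6 held it once, and TLR2, TLR3 and IRAK1 did not hold these letters. The TLR3 window held that GAAA pair once, beginning 4 bases before the start, and the MYD88 window held it once, against 3.57% of all promoters. GAGGAA contains the ETS core GGAA, which 95.5% of promoters hold. A search on both strands for GGGA, any 1 base and TTTCC, one form of the NF-kappaB site, and for the TATA box TATAAA found no match in the windows of these 7 members, against 0.558% and 11.5% of all promoters. Matches are letters in a window, and no binding was measured. SPI1, the gene of PU.1 and chosen here after its values were seen, read 8.03, 7.71 and 7.98 in the knockdown, against 7.88, 7.93 and 7.86 in control, a difference of 0.01 ± 0.09 (SE).

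All levels are log2 intensities, and each difference is knockdown minus control with the standard error from limma's fit over all genes, n = 3 arrays per group. A gene was called where that fit gave an adjusted p of 0.05 or less. Pairs of arrays correlated at 0.992 to 0.997 across probe sets. EHMT2 fell by 0.55 ± 0.10 (SE; limma, adjusted p = 0.0259), to 68.1% of the control level. Its difference lay between -0.66 and -0.49 with 1 array left out, and the adjusted p was above 0.05 in 5 of those 6 fits, reaching 0.122. Knockdown replicate 1 was the lowest array for 17.8% of all genes and the highest for 31.9%, and control replicate 3 was the lowest for 24.8% and the highest for 19.8%; the other 4 arrays lay between 9.11% and 19.9% on either side. Control replicate 3 was the lowest array for 4 of the 9 members (TLR3, TLR4, TLR6 and IRAK1) and the highest for LY96 and CD14.

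TLR4 and LY96, which encode the receptor and its obligate partner MD-2, differed in opposite directions. TLR4 read 8.54, 8.92 and 8.76 in the knockdown arrays, against 7.98, 8.07 and 7.58 in the control arrays. Every knockdown array was above every control array, and control replicate 3 was lowest. The means were 8.74 ± 0.19 in the knockdown and 7.88 ± 0.26 in control (SD, n = 3), a difference of 0.86 ± 0.14 (SE), or 1.81-fold. LY96 read 6.30, 6.70 and 6.41 in the knockdown, against 7.14, 6.92 and 7.47 in control. Every knockdown array was below every control array, and control replicate 3 was highest. The LY96 means were 6.47 ± 0.21 in the knockdown and 7.18 ± 0.28 in control (SD, n = 3), a difference of -0.71 ± 0.15 (SE), which put the knockdown at 61.2% of control. LY96 lay in the lowest 33.3% of genes by mean level, where signal was not separated from background.

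Of the 9 members, TLR4 was called higher and LY96 was called lower by the fit over all genes, which called 1.28% of genes higher and 1.78% lower (3.05% in either direction). Since the set was chosen on this contrast, nothing is read from that count. The directions of both genes were the same with any 1 array left out, TLR4 between 0.71 and 0.96 and LY96 between -0.84 and -0.56. The TLR4 call was lost without knockdown replicate 1 (0.96), 2 (0.77) or 3 (0.85). The LY96 call was lost without control replicate 1 (-0.73) or 3 (-0.56), and equally without any of the knockdown arrays (-0.62, -0.82 and -0.68 without the first, the second and the third). Knockdown arrays lay wholly above control arrays for 2 members, TLR4 and IRAK1, and wholly below for LY96, against 14.3% and 12.7% of all genes.

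**Figure D1:**
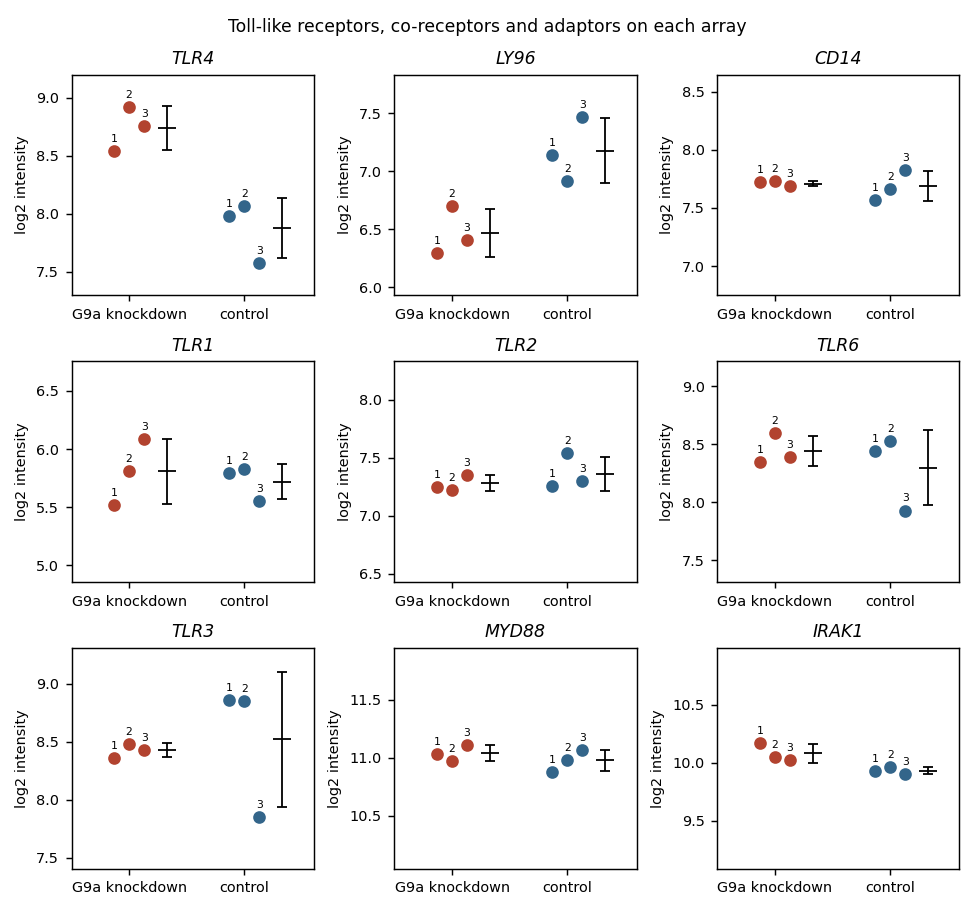
Log2 intensity of each of the 9 measured genes on the 3 G9a knockdown arrays (red) and the 3 control arrays (blue); numbers are replicate numbers, and the black mark and bars are the mean and SD of the group. Every panel spans the same range of log2 units, centred on the gene. The groups separate for TLR4, LY96 and IRAK1, and control replicate 3 lies far below the other control arrays for TLR3 and TLR6.

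CD14, which hands lipopolysaccharide to the complex of TLR4 and MD-2, differed by less than its spread. It read 7.72, 7.73 and 7.69 in the knockdown, against 7.57, 7.66 and 7.83 in control. The knockdown values lay inside the control range, and the difference was 0.03 ± 0.08 (SE). It was -0.03 without control replicate 1 and 0.10 without control replicate 3, so its sign rested on single arrays.

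The receptors for lipopeptides showed no difference beyond their errors. TLR2, the shared subunit, read 7.25, 7.22 and 7.35 in the knockdown, against 7.26, 7.54 and 7.30 in control, a difference of -0.09 ± 0.09 (SE). Control replicate 2 was the high array, and without it the difference was -0.00147. TLR1 read 5.52, 5.81 and 6.09 in the knockdown, against 5.79, 5.83 and 5.55 in control, a difference of 0.08 ± 0.14 (SE) that ran from -0.06 to 0.23 with 1 array left out. The knockdown arrays of TLR1 spread over a wider range than the control arrays and enclosed them. TLR6 read 8.35, 8.60 and 8.39 in the knockdown, against 8.44, 8.53 and 7.93 in control, a difference of 0.14 ± 0.15 (SE). Without control replicate 3, the low array, TLR6 was at -0.04. TLR1 and TLR6 are close paralogs that lie next to each other on chromosome 4. The probe set of either gene may pick up signal of the other, which was not tested, so neither value is certain on its own. TLR1 and TLR2 lay in the lowest 33.3% of genes by mean level.

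TLR3 was the member whose value depended most on 1 array. It read 8.36, 8.48 and 8.43 in the knockdown, against 8.86, 8.85 and 7.85 in control. The first and second control arrays were above all knockdown arrays, and control replicate 3 was below all of them. The SD was 0.06 in the knockdown and 0.58 in control, and the difference was -0.09 ± 0.24 (SE). Without control replicate 3 it was -0.43 ± 0.06 (SE) and the gene was called lower; without control replicate 1 or 2 it was 0.08 or 0.07.

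**Figure D2:**
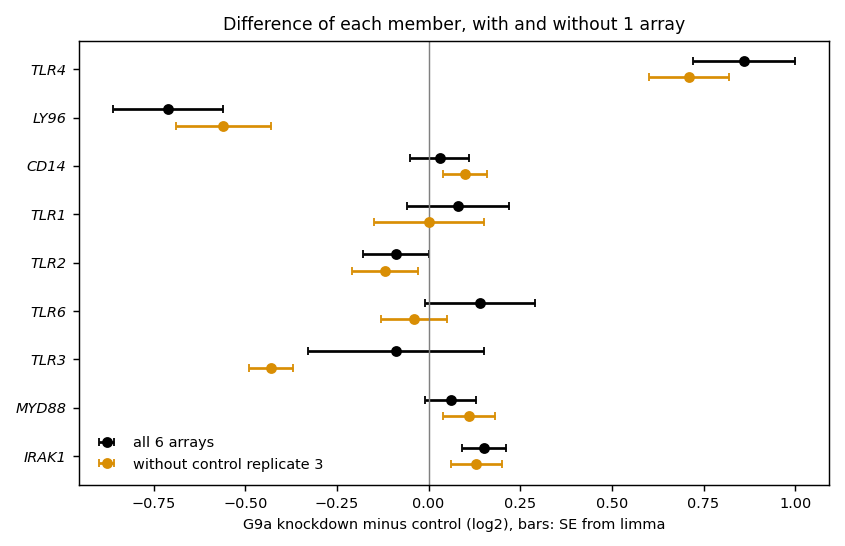
Knockdown minus control on the log2 scale for each measured gene, with the standard error from limma, over all 6 arrays (black) and without control replicate 3 (orange). TLR4 and LY96 keep opposite sides of 0 in both, while TLR3 is at -0.09 with all arrays and at -0.43 without that array.

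The adaptor and the kinase downstream of the receptors differed little between the groups, and neither was called. MYD88 read 11.03, 10.97 and 11.11 in the knockdown, against 10.88, 10.98 and 11.07 in control, a difference of 0.06 ± 0.07 (SE) with overlapping groups. IRAK1 read 10.17, 10.05 and 10.02 in the knockdown, against 9.93, 9.96 and 9.90 in control. Its groups did not overlap, but the difference was 0.15 ± 0.06 (SE), or 1.11-fold. The IRAK1 difference lay between 0.10 and 0.18 with 1 array left out.

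The genes whose pattern over the 6 arrays was most like that of TLR4 were RTL3, TMT1A, HAPLN1, FBP1 and TM4SF18. Likeness was the root mean square difference between values after each gene's own mean was subtracted, and it was 0.103, 0.116, 0.146, 0.148 and 0.158 log2 units for these genes. RTL3, a gene derived from a retrotransposon Gag, read 7.22, 7.51 and 7.14 in the knockdown, against 6.44, 6.49 and 6.07 in control, and was 1.94-fold higher in the knockdown. TMT1A was 1.73-fold higher, HAPLN1, which links hyaluronan to proteoglycans, 1.63-fold, FBP1, a gluconeogenic phosphatase, 1.65-fold, and TM4SF18 1.62-fold. RTL3 and HAPLN1 lay in the lowest 33.3% of genes by mean level. Knockdown replicate 2 was the highest array and control replicate 3 the lowest for each of these 5 genes, as for TLR4. Among the other members, TLR6 ranked nearest to TLR4, at 1031 of 18416 genes. Control replicate 3 was the lowest array of both genes, and without it TLR6 was at -0.04 and TLR4 at 0.71. LY96 was among the genes least like TLR4, at 18350. A higher level in the knockdown and the shared highest and lowest arrays came with choosing genes by their likeness to TLR4. These folds and shared arrays are thus a description with no test.

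**Figure D3:**
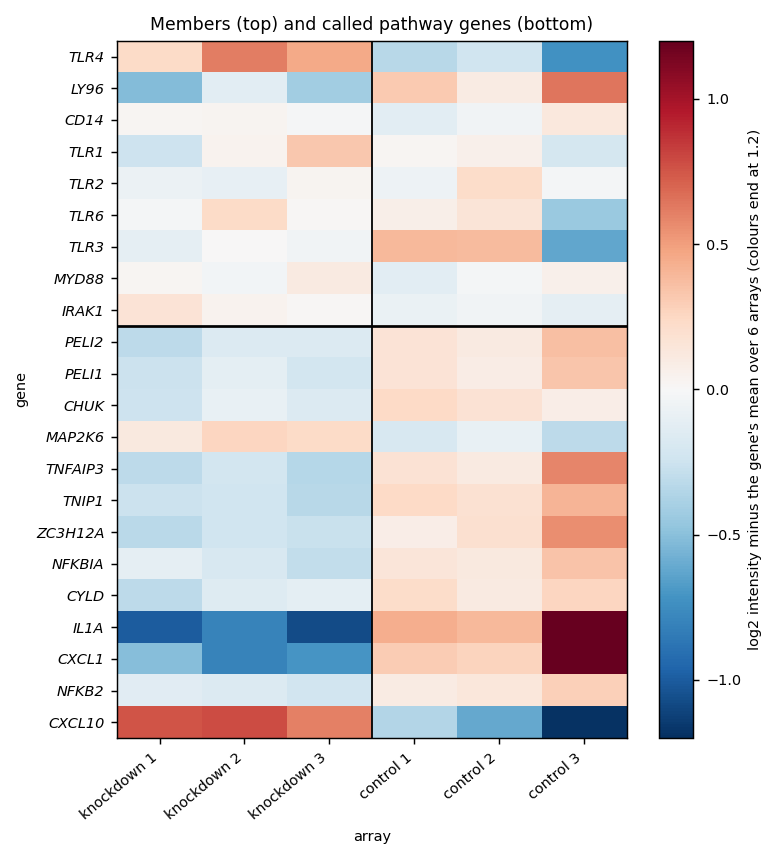
Log2 intensity of each gene minus its own mean over the 6 arrays, with the knockdown arrays on the left and the control arrays on the right; red is above and blue below the gene's mean, and colours end at 1.2. The 9 members are above the black line and the called genes of the pathway lists below it. TLR4 and CXCL10 are high in the knockdown, whereas LY96 and most of the called pathway genes are low, with control replicate 3 at the far end for most of them.

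The rest of the pathway was followed with 5 lists: other receptors and chaperones, the MyD88 arm, the TRIF arm with its products, negative regulators, and NF-kappaB target genes that receptor ligands induce. Of their 93 genes, 84 were measured singly. There were 2 called higher (2.38%, against 1.28% of all genes) and 11 called lower (13.1%, against 1.78% of all genes), and 71 did not pass. The median difference of the 84 genes was -0.07, against 0.03 over all genes. Groups did not overlap for 9 genes higher and 35 lower, where 14.3% and 12.7% of all genes did so. These lists were drawn up with earlier results of the same arrays known, in which NF-kappaB genes were lower, so the direction is not independent evidence. The number of genes called lower moved with the arrays: 11 genes without control replicate 3, but 3 without control replicate 1, 1 if either second replicate was dropped, and 0 without the first or the third of the knockdown arrays.

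Of 20 measured negative regulators of Toll-like receptor signalling, 5 fell. TNFAIP3, the ubiquitin-editing enzyme A20, fell by 0.58 on the log2 scale (limma, adjusted p = 0.0466), and its partner TNIP1 fell by 0.55 (adjusted p = 0.0120). ZC3H12A, an RNase that degrades cytokine messages, fell by 0.55 (adjusted p = 0.0446). NFKBIA, which holds NF-kappaB in the cytoplasm, fell by 0.40 (adjusted p = 0.0461). The deubiquitinase gene CYLD, named after its values were seen, fell by 0.39 (adjusted p = 0.0380). These 5 were 25.0% of the list, against 1.78% of all genes called lower; none rose in limma's test and 15 did not pass. At an unadjusted p under 0.05, 1 was higher and 9 were lower, where 10.1% and 9.23% of all genes were higher and lower. The list's median was -0.13. TNIP1 read 9.96, 9.98 and 9.89 in the knockdown, against 10.46, 10.40 and 10.63 in control, with a wide gap between the groups.

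TNIP1 passed in 4 of 6 fits with 1 array left out (adjusted p = 0.0528 and 0.0737 without knockdown replicates 1 and 3). ZC3H12A passed in 2 of the 6 (without control replicate 1 or 3), TNFAIP3 in 1 (without control replicate 3), and NFKBIA and CYLD in none, with adjusted p up to 0.174. After quantile normalization 2 of the 5 were called, and TNFAIP3 (adjusted p = 0.051), ZC3H12A (0.0579) and NFKBIA (0.0627) were not. IRAK3, an inhibitory member of the IRAK family also named after its values were seen, was at -0.48 and did not pass (adjusted p = 0.0737).

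In the MyD88 arm, PELI2 fell by 0.42 (limma, adjusted p = 0.0379) and PELI1 by 0.40 (adjusted p = 0.0391); they encode Pellino ubiquitin ligases that act on IRAK kinases. CHUK, the gene of the kinase IKK-alpha, fell by 0.33 (adjusted p = 0.0461). MAP2K6, an activator of the p38 kinases, rose by 0.40 (adjusted p = 0.0370). PELI1 read 8.35, 8.49 and 8.39 in the knockdown, against 8.77, 8.70 and 8.94 in control, and MAP2K6 read 7.06, 7.20 and 7.18 in the knockdown, against 6.75, 6.86 and 6.63 in control. Neither gene's groups overlapped. Of 19 measured genes 1 rose (5.26%) and 3 fell (15.8%), against 1.28% and 1.78% of all genes, 15 did not pass, and the median was -0.07. MAP2K6 lay in the lowest 33.3% of genes by mean level. With 1 array left out, CHUK passed without control replicate 3, and the other 3 genes passed in no fit (adjusted p from 0.0556 to 0.152). MAP2K6 was also lost after quantile normalization (0.0688) and after median centring (0.0519), and CHUK after median centring (0.0507).

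In the TRIF arm, which TLR3 and TLR4 share, CXCL10, a chemokine gene, rose 2.70-fold (limma, adjusted p = 0.0112), with 9.34, 9.37 and 9.19 in the knockdown, against 8.23, 7.97 and 7.40 in control. It was the 1 gene of 14 that passed (7.14%, against 1.28% of all genes called higher), and none fell. At an unadjusted p under 0.05, 2 were higher and 1 lower, where 10.1% and 9.23% of all genes were higher and lower. The median of the list was -0.02. CXCL10 missed the threshold without knockdown replicate 1 (0.0588) or 3 (0.0576). TICAM1, which encodes TRIF itself and was named after its values were seen, was at -0.05 ± 0.08 (SE). NF-kappaB target genes had a median of -0.24 over 18 measured genes. IL1A (-1.92), CXCL1 (-1.34) and NFKB2 (-0.35) were lower (limma, adjusted p = 0.0415, 0.0458 and 0.0397). These were 16.7% of the list, against 1.78% of all genes, with none higher and 15 that did not pass. At an unadjusted p under 0.05, 0 were higher and 10 lower, against 10.1% and 9.23% of all genes. Relative to the 6-array means, the median of the 18 target genes lay between -0.15 and -0.14 on the 3 knockdown arrays. It was at 0.04 and 0.10 on control replicates 1 and 2, and at 0.35 on control replicate 3. The part of control replicate 3 in these medians was not tested. Without that array IL1A was at -1.37 and CXCL1 at -0.96, and both passed. The list then had 6 genes called lower, beside 3 with all arrays and 0 or 1 without any other array. Over all genes, 313 were then called lower, beside 327 with all arrays and 23 to 126 without any other array. NFKB2 passed in no fit with 1 array left out, and CXCL1 passed only without control replicate 3. IL1A also passed without control replicate 1 (limma, adjusted p = 0.0495). Under quantile normalization CXCL1 (0.0533) and NFKB2 (0.0529) were not called.

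None of the 13 other receptors, binding proteins and chaperones passed in limma's test, where 3.05% of all genes did. At an unadjusted p under 0.05, 1 was higher and 1 lower, against 10.1% and 9.23% of all genes. The largest differences were those of UNC93B1, the chaperone of endosomal Toll-like receptors (0.20, adjusted p = 0.133), and LBP, the lipopolysaccharide-binding protein (0.17, adjusted p = 0.349). The median of that list was 0.04.

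**Figure D4:**
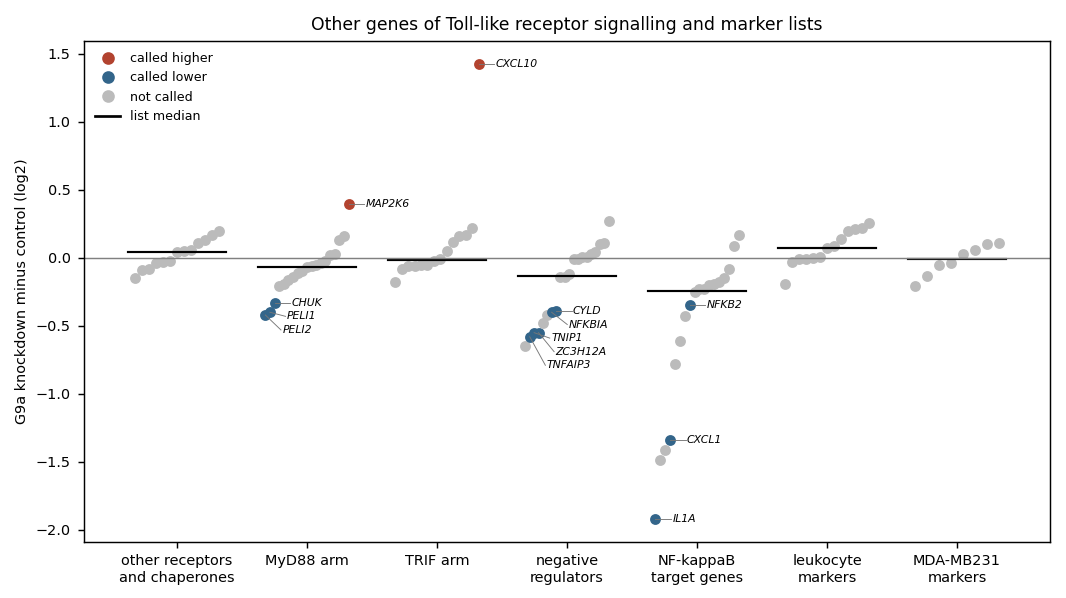
Knockdown minus control on the log2 scale for each measured gene of 5 pathway lists and 2 marker lists, ordered by value within a list; red points were called higher, blue points called lower and grey points not called, and black lines are list medians. Called falls lie in the negative regulators, the NF-kappaB target genes and the MyD88 arm.

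Toll-like receptors and CD14 are best known from leukocytes, so markers of leukocytes were read beside them. None of 13 measured leukocyte markers passed in limma's test, where 3.05% of all genes did. At an unadjusted p under 0.05, 3 were higher and 1 lower, against 10.1% and 9.23% of all genes. By mean level, 9 of the 13 were in the lowest 33.3% of genes. ITGB2 (0.26, adjusted p = 0.055) and CSF1R (0.22, adjusted p = 0.104) had the largest differences. The list was mixed, with a median difference of 0.07 and 4 of the 13 markers negative. CD68, named after its values were seen, was at -0.19 (adjusted p = 0.179), and its groups did not overlap. ITGB2 was called after quantile normalization (0.0477) and with the filter on low genes (0.0254). With array weights 4 markers were called higher and 1 lower, where 1718 and 1610 of all 18417 genes were. The median of the list relative to the 6-array means ran from -0.03 to 0.08 on the knockdown arrays and from -0.08 to 0.01 on the control arrays; its part in the TLR4 value was not tested. None of 8 markers of the MDA-MB231 line passed. At an unadjusted p under 0.05, 0 were higher and 2 lower, against the same 10.1% and 9.23% of all genes. EGFR (-0.21) and MSN (-0.13) had the largest differences. In bulk RNA, a change in the number of cells that express a gene and a change per cell cannot be told apart.

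The members also differ in where they are encoded, and TLR1, TLR2, TLR3 and TLR6 all lie on chromosome 4, where genes tended to be lower in the knockdown. The 710 tested genes of chromosome 4 had a median difference of -0.07, with 67.0% negative. The 113 tested neighbours within 20 genes of the 4 members had a median of -0.10, with 76 negative, 2 called higher and 7 called lower. Their share of negative genes was near that of the whole chromosome. Over all 18417 genes the median was 0.03 and 7441 were negative, with 1.28% called higher and 1.78% called lower. TLR2 and TLR3, both at -0.09, were close to the medians of their own neighbours (-0.10 and -0.09), while TLR1 (0.08) and TLR6 (0.14) were above theirs (both -0.10). That closeness rested on single arrays: without control replicate 3, TLR3 was at -0.43 and its neighbours at -0.11, and without control replicate 2, TLR2 was at -0.00147 and its neighbours at -0.13. TLR4 on chromosome 9 lay in the opposite setting: its 40 neighbours had a median of 0.09, with 7 negative and 1 called higher, and the 732 genes of chromosome 9 had a median of 0.10. The TLR4 difference of 0.86 was far above that median. The 40 neighbours of LY96 had a median of 0.00222, with 20 negative and 1 called lower, beside its own difference of -0.71. A lower setting was not particular to chromosome 4. The 783 tested genes of chromosome 5, which holds CD14, had a median of -0.06, with 62.6% negative. The 40 neighbours of CD14 had a median of -0.12, with 26 negative and 6 called lower, while CD14 was at 0.03. The neighbours of MYD88 and IRAK1 had medians of 0.04 and 0.06. No part of a member's difference was tested against that of its neighbours.

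**Figure D5:**
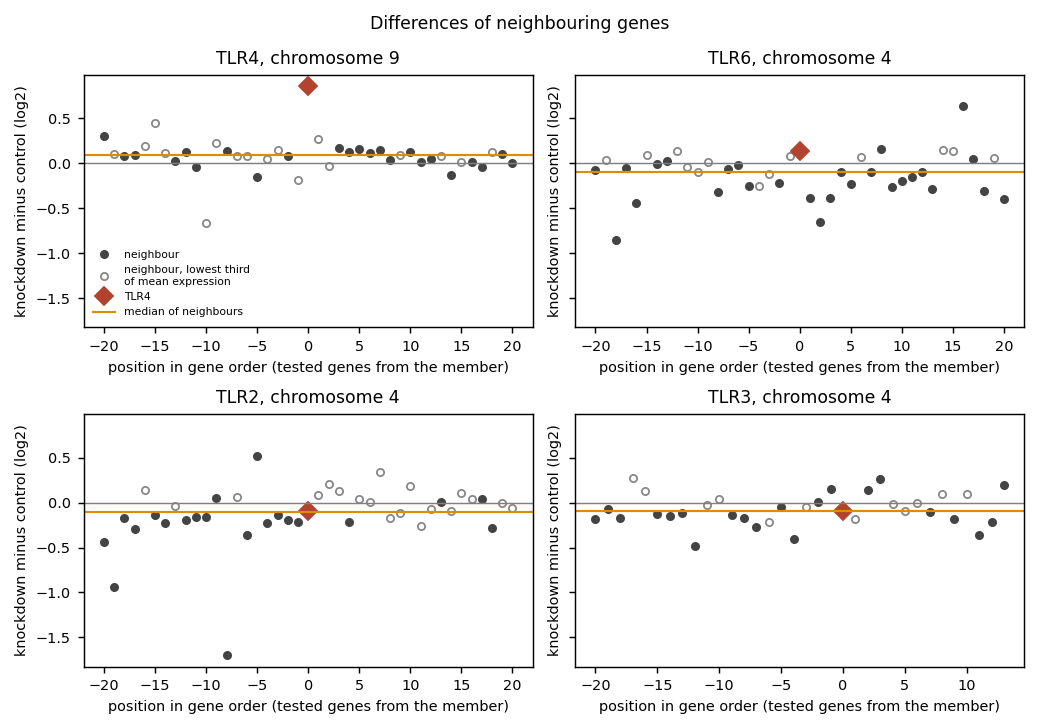
Knockdown minus control on the log2 scale for the tested genes around TLR4, TLR6, TLR2 and TLR3, by position in RefSeq gene order, with up to 20 genes on each side. The red diamond is the named gene, filled points are neighbours, open points are neighbours in the lowest 33.3% of mean level, and the orange line is the median of the neighbours. TLR4 stands far above its neighbours, and with all 6 arrays TLR2 and TLR3 lie near the median of theirs.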

How the data were processed

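Total RNA of 6 samples was hybridised to single-colour arrays, 3 of G9a knockdown cells and 3 of control cells, grouped and numbered by their titles. The deposited table holds the authors' log2 values, 1 for each probe set on each array; no source used here gives the software or scaling, and the log2 scale was inferred from the range, 2.13 to 14.8. Array medians were 7.79 to 7.86. Without detection calls, low values could not be told from background, and precision is limited by the small number of arrays.

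Of 33297 probe sets, 19460 named 1 gene; symbols were updated through Entrez numbers and the RefSeq table of GRCh38.p14, and the probe set with the highest mean stood for a gene. limma 3.58.1 in R 4.3.3 (lmFit, eBayes, two-sided, 4 residual degrees of freedom) was run on 18417 genes with Benjamini-Hochberg adjustment and tested on simulated data. The alternatives were quantile normalization, median centring, a filter on low genes, a variance trend, array weights, other uses of probe sets, a replicate block, and leaving out each array. Beside the members and EHMT2, each list gave up to 4 called genes, or its 2 largest differences where none was called; the 5 genes most like TLR4 were also named. The members and lists were chosen with earlier results of these data known.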

Additional observations from a re-analysis of the deposited data

How the results depend on the processing

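The signs of TLR4, LY96, IRAK1, MYD88, TLR2 and EHMT2 were the same under every alternative run. TLR4 kept its call in the 8 alternatives that used all arrays (0.74 to 0.86), as did EHMT2 (-0.70 to -0.54). With 1 array left out TLR4 ranged from 0.71 to 0.96 and EHMT2 from -0.66 to -0.49. The rise of TLR4 on these arrays chose the set, so its kept call is a description and no test. LY96 ranged from -0.84 to -0.56 with 1 array left out; it was -0.71 with a replicate block and no longer called, and it was absent where the lowest 33.3% of genes were left out, so 0 members were then called lower. The labels do not say whether replicate numbers pair the samples. Deviations from the group means correlated at -0.246, 0.122 and 0.0877 within replicates 1, 2 and 3, which cannot settle it with 3 arrays per group. Under the replicate block 0 members were called lower, and of the pathway genes 1 was called higher and 1 lower, beside 101 and 116 of all genes. Left out in turn, the arrays gave 0 to 1 members called in each direction, 0 to 1 pathway genes higher, 0 to 11 lower, and 21 to 222 of all genes higher and 23 to 313 lower.

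Signs that turned were those of TLR1 (-0.06 to 0.23 with 1 array left out), TLR3 (-0.43 to 0.08), TLR6 (-0.04 to 0.26, and -0.05 with array weights) and CD14 (-0.03 to 0.10, and -9.33e-05 after quantile normalization); the cause was not tested beyond the array left out. Pathway genes called higher were 1 after quantile normalization, median centring or the filter on low genes and 6 with array weights; those called lower were 6 after quantile normalization, 18 with a variance trend and 28 with array weights. Of all genes, 235 were called higher and 327 lower. These counts were 398 and 574 with the filter, 434 and 649 with the trend, and 1718 and 1610 with array weights. Those weights were uneven, from 0.273 for control replicate 3 to 4.83 for control replicate 2, so the latter counted most there. The median of the neighbours of the 4 members on chromosome 4 was -0.12 after median centring, -0.17 with the filter, and -0.11 to -0.08 with 1 array left out.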
